A study of Rattus norvegicus with 44 samples.

Results

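The genes described here are 5 genes of monocytes and macrophages: Cd14, Ccr1, Csf1r, Gpnmb and Dab2. They were chosen by name, and every probe whose annotated symbol, current or older, was 1 of these names was taken. That gave 7 probes of the 14055 on the array, which carry 10412 named genes in all. Cd14 had 2 probes (A_44_P469584, called probe 1, and A_44_P519251, probe 2), as did Csf1r (A_44_P257582, probe 1, and A_44_P503932, probe 2). Ccr1 (A_44_P358235), Gpnmb (A_44_P990376) and Dab2 (A_44_P513385) had 1 each.

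Transcripts were measured on 44 arrays with 1 dye in male Sprague-Dawley rats of the NCTR strain, aged 3 months. The rats had received saline, had been overheated by their surroundings (environmentally induced hyperthermia, EIH) or had been given amphetamine in neurotoxic doses (AMPH), and were killed 3 h or 1 day later. Trunk blood was hybridised rat by rat, 4 arrays for each of the 6 combinations of treatment and time. The choroid plexus, the tissue that makes cerebrospinal fluid, was hybridised as pools of 3 rats, with 4 pools each for saline at 3 h and for EIH and AMPH at both times. No saline choroid plexus of 1 day was analysed here, so the 1 day pools were set against saline at 3 h. The 4 EIH pools of 1 day carry the word control in their titles, but their source and treatment labels give EIH, which is how they are grouped here. A tag on the blood samples mentions the striatum, whereas the protocol describes trunk blood. The labels give 5 rat numbers that recur over 7 of the pools, 3 of them in pools that differ in treatment or time, and 17 blood samples carry a number that is also in a pool. Of all numbers, 4 appear at both 3 h and 1 day, which a single rat cannot, and it is not stated whether a recurring number is the same rat. The study asked how the choroid plexus responds to damage after each exposure, and set it beside blood.

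As background, monocytes circulate in blood, and their tissue relatives, the macrophages, include cells on and beneath the choroid plexus epithelium. CD14 is a surface protein that hands bacterial lipopolysaccharide, loaded by the plasma protein LBP, to the TLR4 receptor, and in rodents neutrophils can carry it too. CCR1 is a receptor for chemokines such as CCL3 and CCL5 and guides monocytes and neutrophils. CSF1R is the receptor for CSF1 and IL-34 and maintains the monocyte and macrophage lineage. GPNMB is a membrane glycoprotein of lysosome-rich phagocytes, whose gene is a known target of the MITF and TFE family of transcription factors. DAB2 is an adaptor that brings cargo receptors of the LDL receptor family into clathrin-coated pits, in macrophages and in many epithelia. All samples are bulk RNA, in which fewer cells of a type and less RNA per cell cannot be told apart.

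The stretches upstream of 3 of the genes are shown: Cd14 and Gpnmb, which were called in the blood comparisons at 3 h, and Csf1r, which was not. Ccr1 and Dab2 were called there too, and their stretches were searched but are not printed. All stretches come from RefSeq, build GRCr8, and each holds the 250 bases before the annotated start. A stretch was found for all 5 genes. The 3 shown are printed 5′ to 3′ on the gene's own strand, with matches to any of 5 motifs in capitals.
Cd14, chr18:28611159-28611408, minus strand: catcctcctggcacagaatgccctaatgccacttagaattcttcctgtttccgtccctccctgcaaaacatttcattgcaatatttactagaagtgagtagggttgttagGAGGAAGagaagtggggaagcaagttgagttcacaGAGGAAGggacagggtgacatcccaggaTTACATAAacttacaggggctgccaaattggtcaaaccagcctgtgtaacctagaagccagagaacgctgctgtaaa
Csf1r, chr18:56834129-56834378, plus strand: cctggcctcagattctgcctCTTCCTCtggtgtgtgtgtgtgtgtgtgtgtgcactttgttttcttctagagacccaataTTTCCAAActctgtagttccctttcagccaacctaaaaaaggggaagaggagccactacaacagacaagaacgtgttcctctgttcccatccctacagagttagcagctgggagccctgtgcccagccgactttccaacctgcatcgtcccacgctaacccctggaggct
Gpnmb, chr4:79340878-79341127, plus strand: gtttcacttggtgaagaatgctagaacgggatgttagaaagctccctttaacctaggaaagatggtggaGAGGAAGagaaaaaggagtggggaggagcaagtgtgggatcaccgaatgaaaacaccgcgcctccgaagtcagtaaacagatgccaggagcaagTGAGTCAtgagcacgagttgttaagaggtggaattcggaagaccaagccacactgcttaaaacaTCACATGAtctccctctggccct

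The motifs were searched on both strands as the letters AP-1 TGANTCA, M-box TCATGTGA (bound by the MITF and TFE family), PU.1 core GAGGAAG, C/EBP TTNNGNAA and heat shock element GAANNTTC. The Gpnmb stretch held 1 M-box match, 1 AP-1 match and 1 PU.1 core match. The M-box letters were present in 0.977% of 33469 stretches of the same length and the AP-1 letters in 6.34%. Cd14 held 2 PU.1 core matches, against a share of 10.2% with any, and 1 C/EBP match. Csf1r held 1 of each of these, and the C/EBP letters occurred in 37.2% of stretches. The Ccr1 stretch held 1 C/EBP match, the Dab2 stretch held none of the 5, and the heat shock letters (7.23% of stretches) were in none of the 5 genes. A match is a description of the sequence, and nothing was measured about factors bound there.

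Values are given as log2 of the deposited intensity. The 24 arrays of 3 h and the 20 arrays of 1 day had slightly different scales (medians 139 to 146 and 165 to 171), so a comparison between times mixes time with this set. Between 1.21% and 17.1% of probes were blank on an array, more in blood than in choroid plexus, and dim values fell on steps shared by up to 870 probes, so they have little fine order. Markers matched the tissues: the summed intensity of 12 choroid plexus epithelium genes was 287000 to 313000 in 19 pools and at most 17400 in blood, while 6 erythroid genes summed to 170000 to 199000 in blood. The second AMPH pool of 1 day stood apart, with 129000 for the epithelial genes, 135000 for 8 genes of stroma and meninges (11600 to 15600 in the other pools of its group) and 14100 for the erythroid genes. The first EIH pool of 1 day also had a high stroma and meninges sum, 81900 against 13400 to 14300. In blood, replicate 4 of saline at 1 day had the most blanks and the lowest mean correlation with its group, 0.8322. Several differences that rest on these arrays are given with and without them. Each p-value sets a difference against the scatter of pools or rats within groups, pooled over all groups of the fit and moderated across probes. It measures no other uncertainty. Where groups are said not to overlap, the share of all probes that separate in the same way was not counted.

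In blood at 3 h, 4 of the 5 genes rose after EIH and the same 4 rose after AMPH: Cd14, Ccr1, Gpnmb and Dab2. In limma with Benjamini-Hochberg adjustment, 10.7% of all 13284 probes tested were called after EIH and 7.01% of 13223 after AMPH, against 5 of the 7 probes of these genes in each. Both comparisons use the same 4 saline arrays. At 1 day after AMPH, 4 genes were again higher than in saline, namely Ccr1, Csf1r, Gpnmb and Dab2, with 1.73% of all probes called. Cd14 was not called there, and for neither Csf1r nor Cd14 was the AMPH effect called different between the times. At 1 day after EIH, none of the 7 probes was called at a background of 0.0611%. An unadjusted p under 0.05 in limma was found for 2 of them and for 1324 of all 13095 probes. In choroid plexus, Cd14 probe 1 rose after EIH at 3 h (background 0.339%) and Gpnmb was higher in the AMPH pools of 1 day than in saline of 3 h (background 0.0218%). No probe of the 5 genes was called in choroid plexus after AMPH at 3 h (0.0649%) or for EIH at 1 day against saline (0% of 13863 probes). There 3 and 2 of the 7 had an unadjusted p under 0.05 in limma, as had 1973 of 13858 and 1774 of 13863 of all probes.

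**Figure D1:**
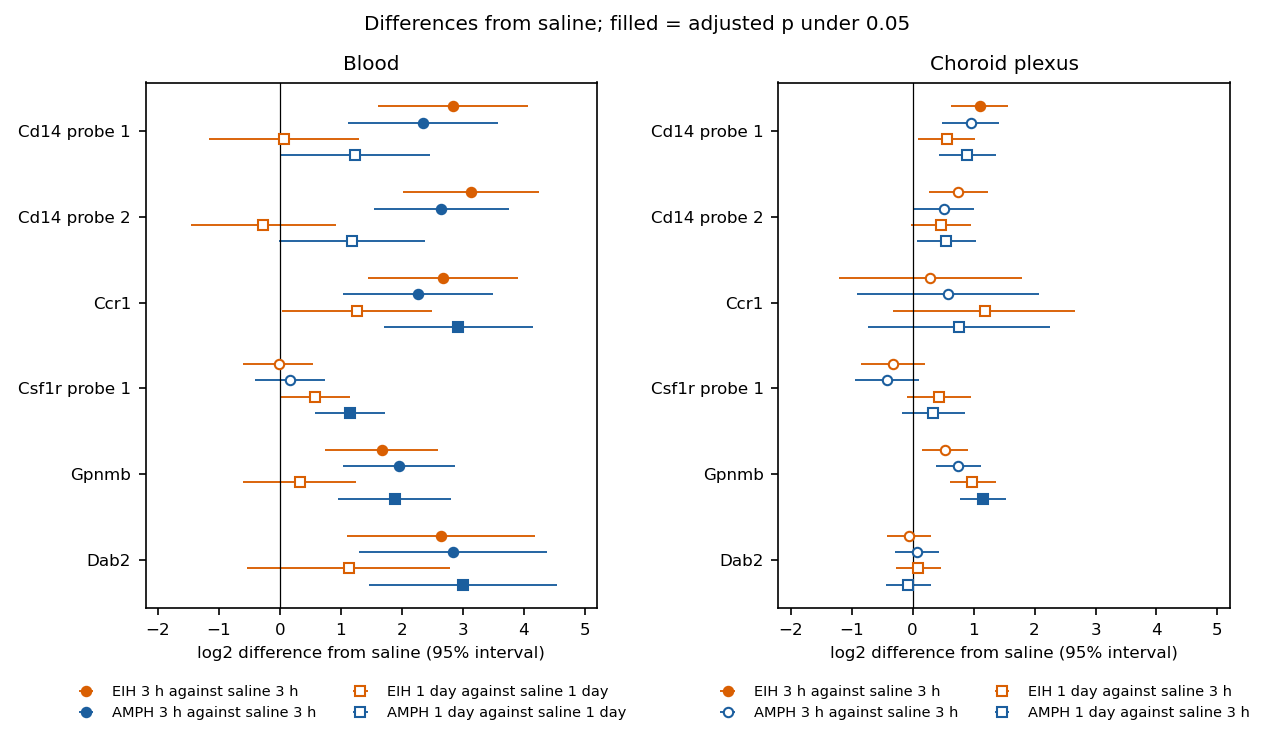
Log2 difference from saline (x axis) with its 95% interval from limma for 6 probes of the 5 genes, in blood (left) and choroid plexus (right); filled symbols have an adjusted p under 0.05. In blood every filled symbol lies to the right of 0, and Csf1r has its only filled symbol for AMPH at 1 day; in choroid plexus the Dab2 intervals all include 0.

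Cd14, the lipopolysaccharide co-receptor, rose in blood at 3 h on both probes. Its probe 1 read 9.22, 10.28, 10.11 and 9.50 in the 4 saline rats of 3 h. After EIH it read 11.53, 12.09, 13.51 and 13.35. After AMPH it read 11.25, 12.67, 11.16 and 13.41. All treated rats were above all saline rats, and within each treatment 2 rats stood well above the other 2. The difference was 2.85 ± 0.59 (SE, n = 4 against 4; 7.19-fold, adjusted p = 0.00327 in limma) for EIH. It was 2.35 ± 0.59 (5.09-fold, adjusted p = 0.0199) for AMPH. Probe 2 read 6.11, 6.92, 7.33 and 6.68 after saline, 8.68, 9.43, 10.92 and 10.59 after EIH and 8.32, 10.09, 8.70 and 10.55 after AMPH, again without overlap. It gave 3.14 ± 0.53 and 2.65 ± 0.53, with adjusted p of 0.000814 and 0.00597 in limma. AMPH and EIH did not separate: the difference on probe 1 was -0.50, with a 95% interval from -1.73 to 0.74. None of the 7 probes was called between them (background 0.0442%). None had an unadjusted p under 0.05, while 1240 of all 13561 probes did.

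At 1 day Cd14 probe 1 read 9.63, 10.21, 9.01 and 8.49 after saline and 9.17, 8.68, 9.89 and 9.88 after EIH. The EIH rats of 1 day thus lay within the range of their saline controls. After AMPH the values were 9.82, 9.68, 12.09 and 10.68, so 2 rats were above every saline rat and 2 were not. Probe 2 read 7.58, 7.47, 9.33 and 8.34 after AMPH, above all 3 measured saline rats (6.93, 6.98 and 7.07) and all 4 EIH rats (6.18 to 7.17). The differences were 0.07 ± 0.59 for EIH and 1.23 ± 0.59 (adjusted p = 0.292) for AMPH. On probe 2 AMPH gave 1.19 ± 0.57 against saline (adjusted p = 0.298) and 1.45 ± 0.53 against EIH (adjusted p = 0.297). The EIH effect was smaller at 1 day than at 3 h by 2.78 ± 0.83 on probe 1 (adjusted p = 0.0468) and by 3.41 ± 0.78 on probe 2 (adjusted p = 0.0156); 7.43% of all probes were called for this difference of effects. The probe 1 call was lost in 16 of the 24 fits that left out 1 array, with adjusted p up to 0.0971, whereas probe 2 was called in all 24 and lost its call when blank cells were filled (adjusted p = 0.11). For AMPH the same difference of effects was not called for any of the 5 genes (background 0.379%). An unadjusted p under 0.05 was found for 1 of the 6 probes tested and for 1665 of all 12673. On Cd14 probe 1 the difference of AMPH effects was -1.12 with a 95% interval from -2.86 to 0.62. Between the saline rats of 1 day and of 3 h none of the 7 probes was called (background 0.508%). None had an unadjusted p under 0.05, while 1793 of all 12985 probes did.

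The 3 h calls differed in how much they rested on single rats. For EIH, both Cd14 probes were called in all 24 fits without 1 array. For AMPH, probe 2 was called in all 24, and probe 1 lost its call without saline replicate 1 (adjusted p = 0.0684), saline replicate 4 (0.0507), AMPH replicate 2 (0.0654) or AMPH replicate 4 (0.0836).

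In choroid plexus, Cd14 probe 1 moved over a smaller range. Saline pools read 8.85, 8.85, 8.60 and 8.39, and EIH pools of 3 h read 9.65, 10.45, 9.22 and 9.75. AMPH pools of 3 h read 9.83, 9.64, 9.64 and 9.37. All 8 treated pools of 3 h lay above every saline pool. The EIH difference was 1.10 ± 0.22 (2.14-fold, adjusted p = 0.0395) and the AMPH difference 0.95 ± 0.22 (1.93-fold, adjusted p = 0.0884), and the pools of AMPH and EIH overlapped (difference -0.15, 95% interval -0.62 to 0.32). None of the 7 probes was called between these 2 treatments (background 0.00722%). None had an unadjusted p under 0.05, while 395 of all 13860 probes did. Probe 2 gave 0.75 ± 0.23 for EIH (adjusted p = 0.181) with 1 of the 4 EIH pools, at 6.60, inside the saline range of 6.28 to 6.77.

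The choroid plexus EIH call of Cd14 stood close to the threshold. It was lost in 15 of 20 fits without 1 pool (adjusted p 0.0534 to 0.166) and kept without EIH 3 h replicate 3, AMPH 3 h replicate 4 or AMPH 1 day replicates 2, 3 and 4 (0.0156 to 0.0453). Without the pools that hold a recurring rat number it was 0.78 (adjusted p = 0.345). For AMPH at 3 h, Cd14 probe 1 passed without AMPH 3 h replicate 4 (adjusted p = 0.0326) and without the outlying AMPH 1 day replicate 2 (0.0312), which in that fit contributes only to the spread. At 1 day, EIH pools read 9.39, 9.23, 9.28 and 9.01 and AMPH pools 9.51, 10.07, 9.28 and 9.42, again all above the saline pools of 3 h. The differences of 0.56 and 0.90 were not called, and they cross the array sets, of which that of 1 day has the higher scale. Without EIH 1 day replicate 1 the EIH difference was 0.5 (adjusted p = 0.446 in limma). Without AMPH 1 day replicate 2 the AMPH difference was 0.74 (0.143).

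**Figure D2:**
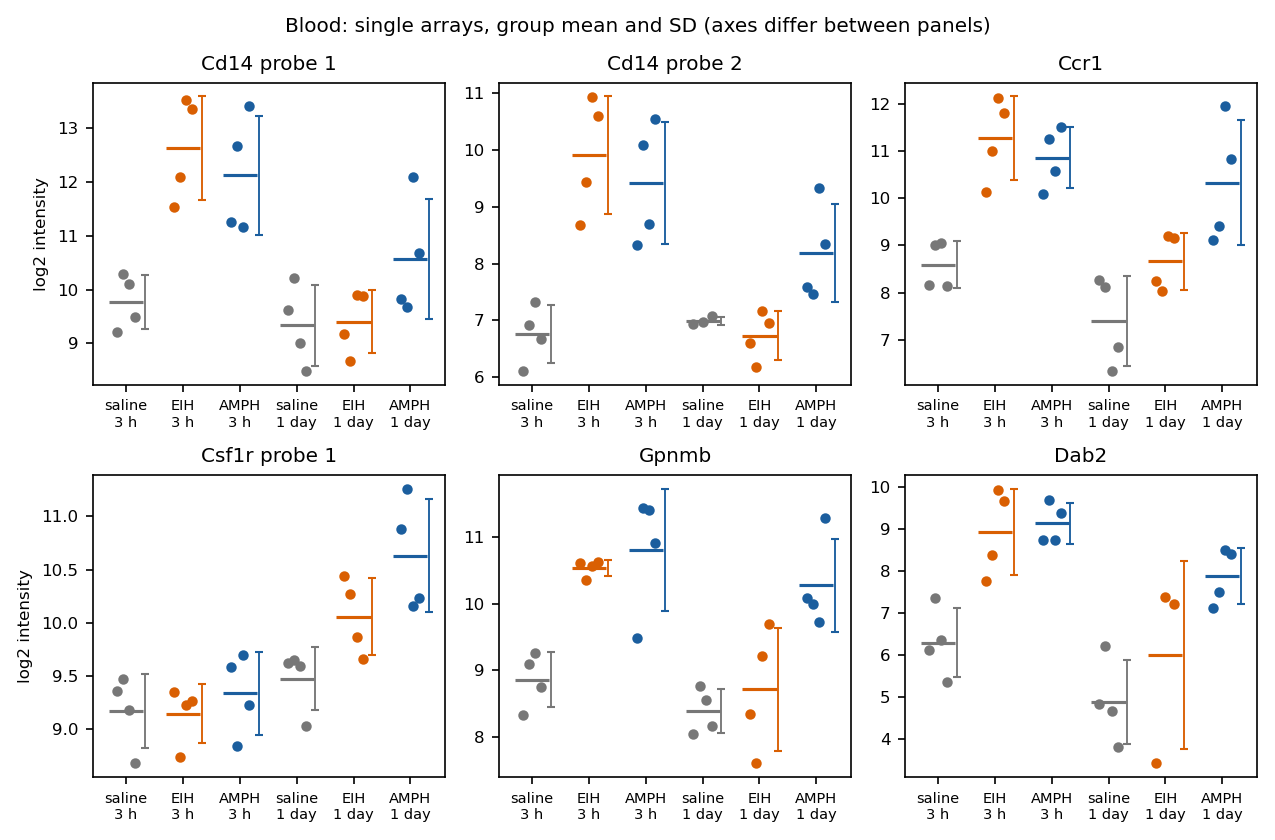
Log2 intensity (y axis) of 6 probes in each of the 24 blood arrays by treatment and time (x axis); points are rats, horizontal lines group means and bars 1 SD. Cd14, Ccr1, Gpnmb and Dab2 are above saline in every EIH and AMPH rat of 3 h. Csf1r is above saline in every AMPH rat of 1 day. The EIH rats of 1 day are barely so for Csf1r, with the lowest at 9.66 and the highest saline rat at 9.65.

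Ccr1, the chemokine receptor, followed Cd14 in blood at 3 h and stayed high after AMPH at 1 day. The saline rats of 3 h read 8.17, 9.0, 9.04 and 8.14. The EIH rats read 10.13, 12.12 and 11.81 in replicates 1, 3 and 4 and 11 in replicate 2, and the AMPH rats 10.09, 11.25, 10.58 and 11.51. No treated rat overlapped the saline range. The rise was 2.67 ± 0.59 (6.38-fold, adjusted p = 0.00511) after EIH and 2.27 ± 0.59 (4.81-fold, adjusted p = 0.0235) after AMPH. The EIH call was kept in all 24 fits without 1 array. The AMPH call was lost without saline replicate 1 (0.0731), saline replicate 4 (0.0626), AMPH replicate 2 (0.069) or AMPH replicate 4 (0.081).

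At 1 day Ccr1 read 8.27, 8.12, 6.34 and 6.85 in saline blood, 8.24, 8.04, 9.20 and 9.16 after EIH and 9.12, 9.40, 11.96 and 10.83 after AMPH. All AMPH rats were above all saline rats, and 2 of the EIH rats overlapped saline. The AMPH difference was 2.93 ± 0.59 (7.63-fold, adjusted p = 0.0168) and the EIH difference 1.27 ± 0.59 (adjusted p = 0.49). AMPH against EIH gave 1.67 ± 0.59 (adjusted p = 0.276); in that comparison limma called 0 of 13242 probes of the array, while 1433 had an unadjusted p under 0.05. The AMPH call of 1 day was lost without saline 1 day replicate 4 (0.0512), AMPH 1 day replicate 3 (0.0535) or AMPH 1 day replicate 4 (0.0715). It was also lost with array weights (1.95, adjusted p = 0.0799) and when only the 2 groups were fitted (0.3).

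In choroid plexus Ccr1 was near the bottom of the scale. Saline pools read 4.86, 4.89, 5.77 and 3.00, and EIH and AMPH pools of 3 h together spanned 3.90 to 6.07, all groups overlapping. Its highest value there, 7.53, was in AMPH 1 day replicate 2, the pool with the high stroma and blood cell markers. The other 3 pools of that group read 5.03, 5.32 and 3.68. The difference of AMPH at 1 day from saline was 0.76 (adjusted p = 0.586 in limma) with that outlying pool and 0.05 (0.98) without it. The intervals were wide (EIH at 3 h 0.29, 95% interval -1.20 to 1.79), so a change of Ccr1 in choroid plexus was not detectable at this signal.

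Csf1r, the growth factor receptor of the lineage, behaved apart from the other 4 genes in blood at 3 h. Probe 1 read 9.36, 9.47, 9.18 and 8.68 in saline, 9.35, 8.74, 9.23 and 9.27 after EIH and 9.59, 8.84, 9.70 and 9.23 after AMPH. The 3 groups overlapped. The differences were -0.02 (95% interval -0.60 to 0.55) and 0.17 (95% interval -0.41 to 0.74), so rises as large as those of Cd14 or Ccr1 lie outside both intervals.

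At 1 day Csf1r probe 1 read 9.62, 9.65, 9.60 and 9.03 in saline blood, 10.44, 10.27, 9.87 and 9.66 after EIH and 10.88, 11.26, 10.16 and 10.23 after AMPH. All 8 treated rats were above all saline rats, although the lowest EIH rat (9.66) was barely above the highest saline rat (9.65). Only the AMPH difference was called, 1.16 ± 0.28 (2.23-fold, adjusted p = 0.037), and EIH gave 0.58 ± 0.28 (adjusted p = 0.49). Between AMPH and EIH the difference was 0.58 (adjusted p = 0.463). The AMPH effect at 1 day minus that at 3 h was 0.99 ± 0.39 (adjusted p = 0.289), and the effects were not called different between the times. The lowest saline value, 9.03, belongs to the saline array with the most blanks, and without that array the AMPH call was lost (adjusted p = 0.1). It was also lost without saline 3 h replicate 3 (0.0504), saline 1 day replicate 3 (0.0597) or AMPH 1 day replicates 1 (0.0671), 2 (0.0827) and 4 (0.0657), and when only the 2 groups were fitted (0.33).

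Csf1r probe 2 could not be used to check probe 1. It lay between 3.17 and 7.03, was blank in 2 of 20 pools and 8 of 24 blood arrays, and was blank in all 4 AMPH rats of 1 day, so it was not tested there, and it was called in no comparison. In choroid plexus, probe 1 read 7.70, 7.65, 8.11 and 7.99 in saline pools and 7.40 to 7.69 after EIH at 3 h. It read 7.18 to 7.90 after AMPH at 3 h, 8.07 to 8.55 in EIH pools of 1 day and 8.07, 9.06, 8.09 and 7.59 in AMPH pools of 1 day. None of the differences from saline was called, and the value of 9.06 is again AMPH 1 day replicate 2. The pools of 1 day were above those of 3 h by 0.75 ± 0.25 for EIH (adjusted p = 0.21) and 0.76 ± 0.25 for AMPH (adjusted p = 0.266), without a call. Without AMPH 1 day replicate 2 the AMPH value was 0.48 (adjusted p = 0.347), and the EIH value stayed 0.75 (0.0527). Without EIH 1 day replicate 1, the pool with the high stroma and meninges sum, the EIH value was 0.69 (adjusted p = 0.28 in limma). None of the 7 probes was called for AMPH between the times (background 0.00726%). An unadjusted p under 0.05 was found for 2 of them and for 1884 of all 13772 probes.

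Gpnmb, the glycoprotein of phagocyte lysosomes, rose in blood at 3 h and was above saline in every treated choroid plexus pool, although mostly short of the threshold there. In blood of 3 h it read 8.33, 9.09, 9.26 and 8.75 after saline, 10.61, 10.35, 10.56 and 10.62 after EIH and 9.48, 11.43, 11.41 and 10.91 after AMPH. No treated rat overlapped saline, and the EIH rats lay close together. The rise was 1.68 ± 0.44 (3.20-fold, adjusted p = 0.0178) after EIH and 1.95 ± 0.44 (3.86-fold, adjusted p = 0.012) after AMPH. The EIH call was lost without saline replicate 1 (adjusted p = 0.0653), and the AMPH call was lost when only these 2 groups were fitted (0.0517).

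At 1 day Gpnmb in blood read 8.05, 8.77, 8.55 and 8.17 after saline, 8.35, 7.60, 9.21 and 9.69 after EIH and 10.08, 9.99, 9.73 and 11.29 after AMPH. The AMPH rats stood clear of both other groups. The AMPH difference from saline was 1.89 ± 0.44 (3.69-fold, adjusted p = 0.0341) and that from EIH 1.56 ± 0.44 (adjusted p = 0.194). The call was lost without saline 1 day replicate 3 (0.0582) or 4 (0.0845) or AMPH 1 day replicate 4 (0.136), with array weights (0.0554) and when only the 2 groups were fitted (0.289).

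In choroid plexus Gpnmb read 9.24, 9.03, 9.13 and 9.02 in saline pools of 3 h. The EIH pools read 9.79, 9.67, 9.69 and 9.41 at 3 h and 10.13, 10.39, 9.95 and 9.90 at 1 day. The AMPH pools read 10.27, 9.95, 9.55 and 9.68 at 3 h and 10.46, 10.62, 10.10 and 9.90 at 1 day. All 16 treated pools lay above all 4 saline pools, but the pools of 1 day come from the array set with the higher scale. The differences from saline of 3 h were 0.53 ± 0.18 (adjusted p = 0.215) and 0.75 ± 0.18 (0.0895) at 3 h, and 0.98 ± 0.18 (0.138) and 1.16 ± 0.18 (2.23-fold, 0.0306) at 1 day, for EIH and AMPH.

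Of the Gpnmb differences in choroid plexus, only that of AMPH at 1 day was called. It mixes treatment with time and with the array set, and the median over all probes in it was 0.11 (0.19 for EIH of 1 day against saline, 0.17 for EIH of 1 day against EIH of 3 h). Setting every array to the same median gave 0.93 (adjusted p = 0.0783), and quantile normalization gave 1.06 (0.107). Without the outlying AMPH 1 day replicate 2 it was 1.04 and still called (0.0456). The call was lost in 9 of 20 fits without 1 pool, namely without any of the 4 saline pools (0.057 to 0.12), EIH 3 h replicates 1 (0.06) and 4 (0.0502), AMPH 3 h replicate 4 (0.0522), EIH 1 day replicate 1 (0.0524) or AMPH 1 day replicate 1 (0.112). Without the pools with recurring rat numbers it was 1.02 (0.322). At 3 h, where no set is crossed, the AMPH difference passed without AMPH 3 h replicate 4 (0.0348) or AMPH 1 day replicate 2 (0.0333). Fitting AMPH of 1 day and saline of 3 h alone gave an adjusted p of 0.63 for the called difference. EIH at 1 day against EIH at 3 h gave 0.45 (adjusted p = 0.282), with no overlap of pools, in a comparison with 0 of 13871 probes called by limma and 1841 with an unadjusted p under 0.05. AMPH against EIH at 1 day gave 0.18 (95% interval -0.20 to 0.55), again with 0 probes called and 761 under that p. Without EIH 1 day replicate 1, EIH of 1 day differed from saline by 0.97 (adjusted p = 0.307 in limma). From EIH of 3 h it then differed by 0.44 (0.335).

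**Figure D3:**
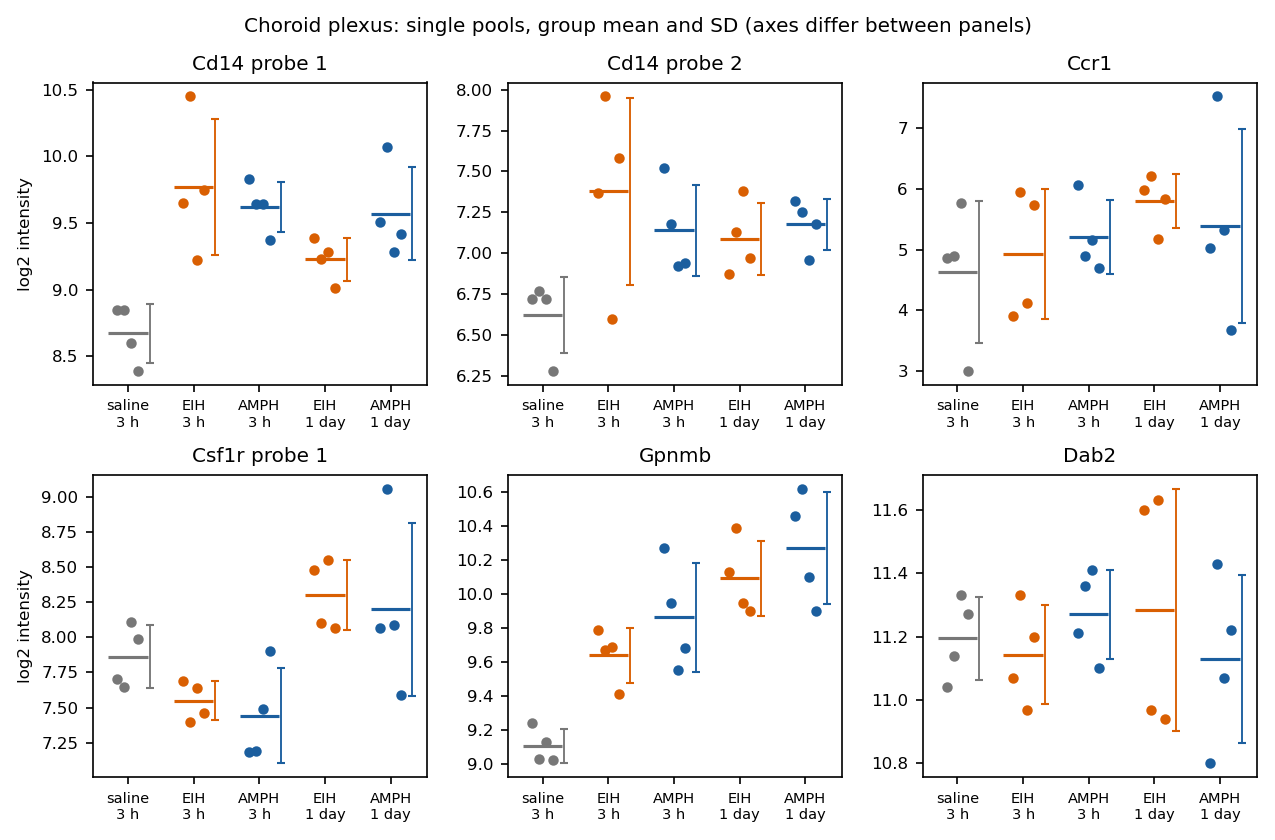
Log2 intensity (y axis) of 6 probes in each of the 20 choroid plexus pools by treatment and time (x axis); points are pools, horizontal lines group means and bars 1 SD. Cd14 probe 1 and Gpnmb are above the saline pools of 3 h in all 16 treated pools, of which those of 1 day come from the array set with the higher scale. The highest Ccr1, Csf1r and Gpnmb values belong to the same AMPH pool of 1 day.

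Dab2, the endocytic adaptor, had the largest difference between the tissues among the 5 genes. In saline choroid plexus it read 11.04, 11.14, 11.33 and 11.27, and in saline blood of 3 h 6.11, 7.35, 6.35 and 5.36. The difference was 4.90 ± 0.38 (about 29.9-fold, with the blood values on steps shared by 79 to 422 probes; adjusted p = 1.62e-05), against a background of 53.9% of 13332 probes called between these tissues. In the same comparison choroid plexus minus blood was -3.96 ± 0.57 for Ccr1, whose choroid plexus values lie near the bottom of the scale so that the size is uncertain, -1.31 ± 0.21 for Csf1r probe 1 and -1.10 ± 0.26 for Cd14 probe 1. Those 4 genes were called, on 4 of the 7 probes, a share near the 53.9% of all probes. Cd14 probe 2 gave -0.14 ± 0.27, so the 2 Cd14 probes did not give the same answer, and Gpnmb gave 0.25 (95% interval -0.25 to 0.75).

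In choroid plexus Dab2 varied little. All 20 pools read between 10.80 and 11.63, and the 4 differences from saline lay between -0.07 and 0.09, with 95% intervals from -0.43 to 0.46 at the widest. In blood it rose. The EIH rats of 3 h read 7.76, 8.38, 9.92 and 9.66 and the AMPH rats 8.74, 9.70, 8.73 and 9.37, all above saline. The rises were 2.64 ± 0.74 (6.22-fold, adjusted p = 0.0258) and 2.84 ± 0.74 (7.17-fold, adjusted p = 0.0245).

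The EIH call of Dab2 was lost without saline 3 h replicates 1 (0.0649), 3 (0.0523) and 4 (0.0747) or EIH replicates 3 (0.0824) and 4 (0.078). The AMPH call was lost without saline replicates 1 (0.0669), 3 (0.053) and 4 (0.0715) or AMPH replicates 2 (0.0727) and 4 (0.067). Because the choroid plexus is rich in Dab2, the 12 epithelial marker genes were looked at in blood. They summed to 8630 to 12400 in saline blood of 3 h, 14300 to 17400 after EIH and 5100 to 17300 after AMPH. Blanks added nothing to these sums: 7 of the genes were blank on at least 1 saline array, 1 of them on all. After EIH 6 and after AMPH 4 were blank on at least 1 array. Of those tested, 1 of 9 rose after EIH (Prlr), near the 10.7% called over all probes. After AMPH, where 7.01% were called, 1 of 10 rose (Ttr, which encodes transthyretin, by 5.05 ± 1.45 with 3 saline values). The source of these transcripts in blood and their part in the Dab2 result were not tested.

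At 1 day Dab2 in saline blood read 4.82, 6.21, 4.66 and 3.81, values on steps shared with 229 to 870 probes. After EIH it read 3.41, a blank, 7.38 and 7.21, and after AMPH 7.11, 7.51, 8.49 and 8.40. The AMPH rats were above all saline rats. The AMPH difference was 3.00 ± 0.74 (adjusted p = 0.0407), and since the saline values are near the bottom of the scale its size is uncertain. Filling blank cells gave an adjusted p of 0.0602, array weights 0.207 and the 2 groups alone 0.286. The call was lost without saline 3 h replicates 1 (0.054) and 3 (0.0552), AMPH 3 h replicate 4 (0.0512), saline 1 day replicates 3 (0.079) and 4 (0.115) or AMPH 1 day replicates 2 (0.0539), 3 (0.107) and 4 (0.136). EIH gave 1.13 (95% interval -0.54 to 2.79; 3 values against 4).

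The treatment effects at 3 h were also compared between tissues. The EIH effect was smaller in choroid plexus than in blood by 2.69 ± 0.79 for Dab2 (adjusted p = 0.0395) and by 2.39 ± 0.60 for Cd14 probe 2 (0.0145), at a background of 4.94%. Ccr1 gave -2.38 (0.137), Cd14 probe 1 -1.75 (0.123) and Gpnmb -1.14 (0.193), of which array weights called Ccr1 (0.0446) and Cd14 probe 1 (0.0169) and a fit of the compared groups alone called Gpnmb (0.0156), and Csf1r probe 1 gave -0.29 (95% interval -1.05 to 0.47). The AMPH effect was smaller in choroid plexus by 2.14 ± 0.60 for Cd14 probe 2 (0.0476), at a background of 2.39%, and Dab2 gave -2.77 (0.0526). The Dab2 call for EIH was lost in 13 of 16 fits without 1 array (adjusted p up to 0.089) and the Cd14 call for AMPH in 13 of 16 (up to 0.124), while the Cd14 call for EIH held in all 16 and was lost when blank cells were filled (0.0615). Of the blood arrays of 3 h, 10 carry a rat number that is also in a pool. These fits ignore it. In a further fit, arrays linked by shared rat numbers, directly or through other arrays, formed a random block. Such a block can hold different rats, and the block correlation was 0.1688.

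In the order of the 11 group means, most neighbours overlapped. For Cd14 probe 1 the order ran from blood EIH of 3 h (12.62) and blood AMPH of 3 h (12.12) down to choroid plexus saline (8.67), and 9 of its 10 neighbouring pairs overlapped. For Ccr1 all 6 blood groups (7.40 to 11.26) were above all 5 choroid plexus groups (4.63 to 5.81). For Dab2 the order was reversed, with the choroid plexus groups at 11.13 to 11.29 and blood from 9.14 down to 4.88. For Csf1r probe 1 the blood groups (9.15 to 10.63) were above choroid plexus (7.44 to 8.30), with blood AMPH of 1 day first. For Gpnmb the tissues were mixed: blood AMPH of 3 h led at 10.81, blood AMPH and choroid plexus AMPH of 1 day both averaged 10.27, and saline groups were among the 4 lowest.

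Cd14, Ccr1 and Dab2 varied together among rats of the same group in blood, and Gpnmb less so. As a description over the blood arrays, which share their normalization and their groups, the Pearson correlation of Cd14 probe 1 was 0.98 with probe 2, 0.92 with Ccr1, 0.88 with Dab2 and 0.77 with Gpnmb. After group means were removed, these values were 0.94, 0.91, 0.69 and 0.34. Csf1r probe 1 ran the other way, at -0.34 with Cd14 probe 1 and -0.36 after group means were removed. The AMPH rats of 1 day show this: replicates 3 and 4 had the highest Cd14, Ccr1 and Dab2 and the lower Csf1r values of the 4. In choroid plexus, over 20 pools, Cd14 probe 1 correlated at 0.55 with Gpnmb, 0.46 with Ccr1, 0.19 with Dab2 and -0.16 with Csf1r probe 1. Without the AMPH pool of 1 day that stood apart these were 0.48, 0.35, 0.12 and -0.48.

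Among named genes measured on every array of a tissue, those most like each member by Pearson correlation were listed, 3 per gene and tissue. Over 24 blood arrays these were Cdkn1a (0.97), Slc2a1 (0.96) and Upp1 (0.96) for Cd14, Upp1 (0.96), Slpi (0.96) and Serpinb1a (0.95) for Ccr1, and Lyz2 (0.92), Csf3r (0.90) and Ggt5 (0.90) for Gpnmb. For Csf1r they were Card9 (0.86), Lipa (0.83) and Slc15a4 (0.82). Dab2 had a blank in blood and was left out. Over 20 choroid plexus pools they were Sphk1 (0.93), Gpr4 (0.92) and Lrrc59 (0.91) for Cd14, Fbn1 (0.93), Capn2 (0.92) and Tmem176b (0.92) for Csf1r, and Klc1 (0.87), Zic1 (0.87) and Rhog (0.86) for Gpnmb. For Ccr1 they were Unc5c (0.87), Adgrg6 (0.82) and A3galt2 (0.80), and for Dab2 M6pr (0.73), Pcbp2 (0.69) and Ybx1 (0.67). Without that AMPH pool the Csf1r values were 0.88, 0.89 and 0.88, the Ccr1 values 0.81, 0.77 and 0.71, and the others lay between 0.67 and 0.94.

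The genes that work with the 5 were read in the same fits. The lists had been chosen with earlier results of these data known, so a count is a description, to be read against the share called over all probes: 10.7% for EIH and 7.01% for AMPH at 3 h in blood, and 0.0611% and 1.73% at 1 day. Of 14 tested genes of CD14 and TLR4 signalling, 3 rose in blood at 3 h after each exposure and none fell: Lbp, which loads lipopolysaccharide onto CD14, by 3.30 ± 0.64 after EIH and 2.78 ± 0.64 after AMPH (3 saline values), Tlr2 by 1.81 and 1.69, and Tlr6 by 1.37 and 1.20. The list's median difference was 0.63 and 0.64, against 0.09 and 0.01 over all probes. At 1 day after AMPH, Lbp (2.72) and Tlr6 (1.14) were higher. The EIH effects on Tlr2 and Tlr6 were smaller at 1 day than at 3 h by 1.95 and 1.14.

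Of 11 chemokine ligands and receptors around CCR1, 1 rose after EIH at 3 h, a share near the 10.7% of all probes, and 1 rose and 1 fell after AMPH. Ccl2, a ligand of the related receptor CCR2, rose by 3.61 ± 0.70 and 2.43 ± 0.70. Ccl4 fell by 1.00 after AMPH. The list's medians were 0.29 and 0.27.

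The CSF1 receptor list, which joins growth factors and their receptors to the transcription factors of the lineage, had 6 of 9 tested genes higher and none lower at 3 h after each exposure, although Csf1r itself was not. Csf1, the ligand, rose by 2.80 ± 0.45 after EIH and 1.96 ± 0.45 after AMPH. Cebpb, a transcription factor of myeloid cells, rose by 2.31 and 1.93, and Csf3r, the receptor of granulocyte colony-stimulating factor, by 1.86 and 1.63. Cebpa rose by 2.47 after EIH (3 EIH values), and Spi1, which encodes PU.1, by 1.76 after AMPH. The medians were 1.77 and 1.53. At 1 day after AMPH 3 of 9 were higher: Csf2rb (2.69), Csf3r (1.89) and Ets2 (1.22). In choroid plexus none of these 9 was called after EIH at 3 h, where 0.339% of all probes were. Their median difference there was 0.86 against 0.03 over all probes.

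Of the lysosome and phagocyte genes grouped with Gpnmb, 4 of 20 rose and 1 fell after EIH at 3 h in blood, and 5 of 21 rose after AMPH, where 10.7% and 7.01% of all probes were called. Cd63, a protein of lysosomal membranes, rose by 1.20 and 1.28. Among the 4 largest called differences of each exposure, Lamp2 (1.00) and the protease gene Ctsd (0.65) rose after EIH, where Acp5 fell by 1.57. Those after AMPH included rises of Tfec (2.65), a member of the MITF and TFE family, Sdc4 (2.29) and Lgals3 (1.24). A gene named after 1 exposure can also have been called after the other. At 1 day after AMPH 5 of 20 were higher (1.73% of all probes called), among them Cd63 (1.65), Npc2 (1.27), Lamp2 (1.08) and Grn (1.07). None was called in choroid plexus after EIH at 3 h or for AMPH at 1 day against saline, where 0.339% and 0.0218% of all probes were.

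Of 21 endocytic partners of DAB2, none was called in blood at 3 h after either exposure, against 10.7% and 7.01% of all probes. At 1 day 1 was called after each exposure, against 1.73% of all probes for AMPH and 0.0611% for EIH: Lrp1, a cargo receptor of the LDL receptor family, was higher after AMPH by 1.96 ± 0.37, and Ap2a1, a subunit of the clathrin adaptor AP-2, was lower after EIH by 1.26 ± 0.20.

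Markers of blood cell types moved in the same comparisons, and their part in the results was not tested. Of 23 monocyte and macrophage markers, 6 rose and none fell after EIH at 3 h (10.7% of all probes called), with Itgam (2.48), Axl (2.17), C1qa (1.56) and Fcgr1a (1.13) leading. After AMPH at 3 h (7.01% called) 2 of 22 rose (Axl 2.08, Fcgr1a 1.08) and 2 fell (Fcgr3a by 1.98, Adgre1 by 1.15). At 1 day after AMPH (1.73% called) 4 of 23 were higher, Itgam (3.38), Lyve1 (1.61), Slc11a1 (1.47) and Fcgr1a (0.95). The summed intensity of the list was 51800 to 62600 in saline blood of 3 h, 76500 to 111000 after EIH and 81900 to 103000 after AMPH. At 1 day it was 49700 to 61800, 47500 to 75900 and 84800 to 120000.

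Among neutrophil markers some rose and among T cell markers most fell at 3 h, in comparisons with 10.7% and 7.01% of all probes called. Of 10 neutrophil markers 5 rose after each exposure, with Mmp9 by 3.28 and 3.30, Mmp8 by 2.71 and 2.59, Camp by 2.32 and 2.33 and Fpr1 by 2.26 and 2.37. Their summed intensity was 21500 to 35300 in saline blood, 46400 to 92100 after EIH and 70300 to 122000 after AMPH. Of 6 T cell markers 5 fell after each exposure, Cd5 by 3.02 and 2.46 and Cd2 by 2.35 and 2.34, and the T cell sum went from 19300 to 24300 in saline down to 4380 to 12000 and 5770 to 12600.

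At 1 day the neutrophil sum was 7430 to 29900 after saline and 14800 to 22400 after EIH. After AMPH it was 26900 and 29100 in replicates 1 and 2 and 74200 and 72500 in replicates 3 and 4. Replicates 3 and 4 are the rats with the higher Cd14, Ccr1 and Dab2 values, and replicates 1 and 2 those with the higher Csf1r values. None of the 10 neutrophil markers was called after AMPH at 1 day, where 1.73% of all probes were. The T cell sum was 19400 to 26500 after saline, 20300 to 26400 after EIH and 8360 to 16400 after AMPH, also without a called gene. In choroid plexus the macrophage sum was 14500 to 16000 in saline, 11700 to 15000 after EIH and 9690 to 15600 after AMPH at 3 h. No member of the list was called there, where 0.339% of all probes were after EIH and 0.0649% after AMPH. The neutrophil sum was at most 1030 at 3 h. At 1 day the macrophage sum was 18900 to 24500 after EIH and 12500 to 74400 after AMPH, the highest in the outlying pool, where the neutrophil sum was 5550.

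**Figure D4:**
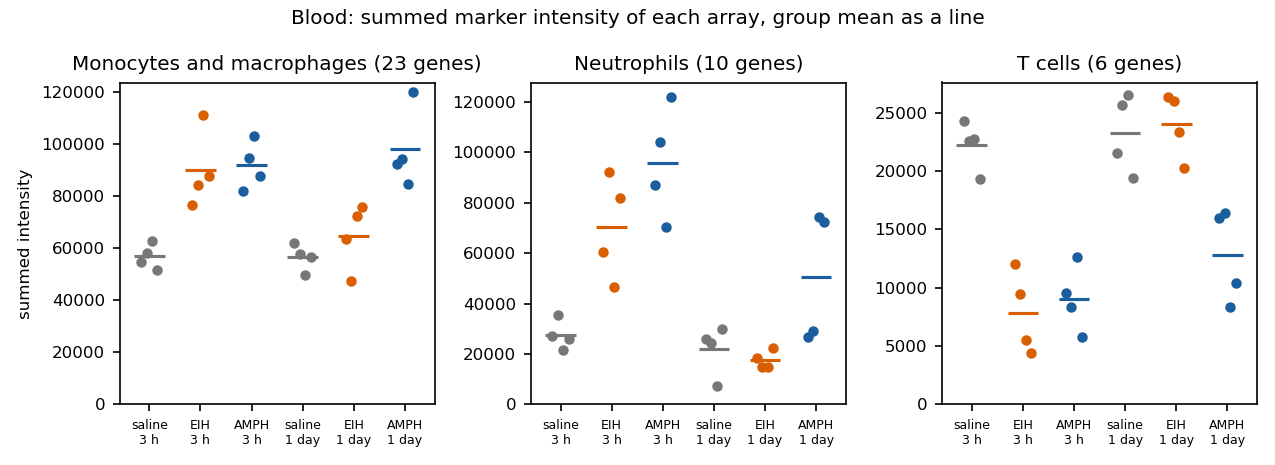
Summed intensity (y axis) of 23 monocyte and macrophage, 10 neutrophil and 6 T cell marker genes in each blood array by treatment and time (x axis); lines are group means. At 3 h every treated rat is above saline for the first 2 lists and below saline for T cells, and at 1 day the AMPH rats split for neutrophils.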

How the data were processed

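Per the labels, total RNA was labelled with 1 dye and hybridised to Agilent rat arrays. The deposited values are linear intensity per probe, with normalization and background correction unstated in the labels. They were taken to log2, with blanks left out. limma 3.58.1 (R 4.3.3) was fitted over all probes with at least 2 values per group, on the 20 choroid plexus or 24 blood arrays, the 8 saline arrays of 3 h between tissues, or all 44 for differences of effects between tissues. Benjamini-Hochberg adjustment ran over all probes, and a probe was called at an adjusted p under 0.05. Tables used pandas 2.3.3 and plots matplotlib 3.10.9. On simulated data for EIH at 3 h, 57% of 2-fold and 80% of 4-fold changes were recovered in choroid plexus and 21% and 73% in blood, with 4.86% and 2.08% false among those called. The changes were placed on a small part of the probes, all without blanks, with normal noise. These rates therefore do not cover probes with blanks, such as Dab2 and Csf1r probe 2 in blood. The number of arrays limits the precision.

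The 5 genes, the gene lists and the tests were chosen with earlier results of these data known. The rule for naming was every probe of the 5 genes, at most 4 called genes per list and comparison with the largest differences, and the 3 most correlated genes per gene and tissue. Alternatives were other scalings (equal median, equal 75th percentile, quantile), leaving out the dimmest 25% of probes and filling blanks at the 1st percentile. Others were an intensity trend with robust spread, array weights, fitting the 2 groups alone, 1 probe per gene and each array left out. Pools with recurring rat numbers were also left out, and arrays linked by shared rat numbers were taken as a block.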

Additional observations from a re-analysis of the deposited data

Results flagged for a closer look

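Of 68 groups of 4 values examined, 2 had 1 sample far from the other 3, where chance gives about 1 in 20. Cd14 probe 2 read 6.28 in choroid plexus saline of 3 h replicate 4, below the other 3 pools. Csf1r probe 1 read 9.03 in blood saline of 1 day replicate 4, below the other 3 rats.

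The effect of EIH in blood differed between the times for Cd14, by -2.78 on probe 1 and -3.41 on probe 2 at 1 day against 3 h. The effect of EIH at 3 h differed between the tissues for Cd14 probe 2 (-2.39, choroid plexus minus blood) and for Dab2 (-2.69). The effect of AMPH at 3 h differed between the tissues for Cd14 probe 2 (-2.14).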

How the results depend on the processing

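The number of the 5 genes called moved with the fit in these comparisons. With array weights, it went from 1 to 2 for choroid plexus EIH at 3 h, from 0 to 2 for AMPH at 3 h, from 0 to 1 for EIH at 1 day against saline, from 0 to 3 for EIH at 1 day against 3 h, from 4 to 1 for blood AMPH at 1 day, from 1 to 3 for the difference of AMPH effects between tissues and from 2 to 3 for that of EIH effects. With the compared groups alone it was 0 for choroid plexus EIH at 3 h, AMPH at 1 day against saline and blood AMPH at 1 day, where 70, 0 and 0 of all probes were called. Without pools with a recurring rat number it was 0 for choroid plexus EIH at 3 h and AMPH at 1 day. Equal medians, equal 75th percentiles and quantile normalization each gave 0 for choroid plexus AMPH at 1 day, where quantile normalization called 0 of all probes. Quantile normalization also gave 0 for the difference of AMPH effects between tissues, with 254 of all probes called against 313. Filling blanks gave 0 for the difference of EIH effects between times, while the calls over all probes went from 943 to 828. It also gave 0 for the differences of EIH and AMPH effects between tissues. There the calls over all probes went from 651 to 614 and from 313 to 280. Using 1 probe per gene gave 1 for the EIH difference between tissues. Leaving out the dimmest probes or using a trend with robust spread gave 2 for the AMPH difference, with 423 and 413 of all probes called. The cause was not tested. Over all probes, array weights moved the calls from 47 to 1410 for choroid plexus EIH at 3 h, from 9 to 1645 for AMPH at 3 h, from 0 to 2719 for EIH at 1 day against 3 h, from 0 to 256 for EIH at 1 day against saline and from 3 to 14 for AMPH at 1 day against saline. In blood they moved from 1419 to 2318 for EIH at 3 h, from 927 to 1818 for AMPH at 3 h, from 8 to 112 for EIH at 1 day and from 227 to 171 for AMPH at 1 day. For the differences between tissues, array weights moved the calls from 651 to 1659 for EIH and from 313 to 1412 for AMPH. With the compared groups alone, blood AMPH at 1 day had 0 calls, and leaving out 1 array gave 31 to 486.

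Leaving out each array in turn gave 0 to 1 called genes for choroid plexus EIH at 3 h, 0 to 2 for AMPH at 3 h and 0 to 1 for AMPH at 1 day against saline. The calls over all probes also moved, from 0 to 153, 0 to 367 and 0 to 11. In blood leaving out 1 array gave 2 to 4 genes for EIH at 3 h, 2 to 4 for AMPH at 3 h and 0 to 4 for AMPH at 1 day. Over all probes there were 915 to 1783, 415 to 1150 and 31 to 486 calls. For the tissue differences it gave 1 to 2 genes for EIH and 0 to 2 for AMPH, with 454 to 718 and 141 to 473 calls over all probes. Of 4081 values of single probes under the alternatives, 3927 kept their side of the threshold, 129 lost the call and 25 gained it. The sign changed for 83, of which 0 were called in either fit.

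The replicate numbers follow the order of deposit and pair no samples, so no fit was blocked on them. The rat numbers link some blood arrays to pools, and it is not stated whether equal numbers are 1 rat. Arrays linked by shared rat numbers were also taken as a replicate block (correlation 0.0754 in the saline fit). With this block, 4 of the 5 genes were called between tissues, 2 for the EIH difference and 1 for the AMPH difference, as without it. Over all probes 53.9%, 4.94% and 2.39% were called in the fits without the block. Low signal limits Ccr1 and Csf1r probe 2 in choroid plexus and Dab2 in saline blood of 1 day.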
